A study of Mus musculus with 8 samples.

Results

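The genes described here are the hypoxia-inducible factors of the mouse hepatocyte line AML12 with 2 of the enzymes that control them and 5 of their best-known targets. They are Hif1a, Epas1, Arnt, Egln1, Egln3, Vegfa, Bnip3, Adm, Car9 and Ndrg1, which makes 10 of the 21612 genes that could be named on the array. Each one was followed through every array probe whose transcript accession maps to it, and this gave 17 probes. The 8 one-color arrays comprise 4 of cells cultured without irisin (control) and 4 of cells given it at 0.5 µg/ml for 24 h. Irisin is a peptide cleaved from the Fndc5 protein, and the comparison asks which genes it regulates in hepatocytes. Both groups were AML12 cells grown in dishes in DMEM F-12 with 10% fetal bovine serum at 37 °C and 5% CO2, so every array comes from a single cell line, and the labels give no oxygen level. The labels do not say whether the replicates were separate cultures, so the p-values measure the spread between these samples, which may be technical.

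Hypoxia-inducible factors are dimers of an alpha subunit, such as HIF-1 alpha or HIF-2 alpha, with a partner such as Arnt. When oxygen is present, prolyl hydroxylases mark the alpha subunit, the von Hippel-Lindau protein binds it, and the proteasome destroys it, so the alpha subunits are governed largely at the level of the protein, which an array does not measure. When oxygen is short the dimer enters the nucleus, binds a short DNA core and raises genes of glycolysis, blood vessel growth, pH control and mitophagy. In the liver these factors are known for their part in lipid handling and in the oxygen gradient of the lobule.

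The DNA core that the dimer binds is shown first. It was searched as ACGTG or GCGTG on both strands, from 250 bases before to 50 bases after each annotated start in RefSeq (GRCm38.p6). CACGTG reads as the core on both strands and is also the E-box bound by other factors. A window was listed for 8 of the 10 genes, all but Epas1 and Ndrg1, and all 8 held a core in at least 1 window, against 46.7% of the 27025 mouse genes with a listed window. A match describes letters and is not a binding site. The stretches of 6 of these genes that hold the core are given 5′ to 3′ along the gene, with the core of either strand in capitals.
Hif1a: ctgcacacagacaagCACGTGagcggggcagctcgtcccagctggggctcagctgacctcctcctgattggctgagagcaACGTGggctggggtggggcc
Egln1: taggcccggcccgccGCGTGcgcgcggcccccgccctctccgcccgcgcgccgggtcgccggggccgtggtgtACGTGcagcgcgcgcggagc
Egln3: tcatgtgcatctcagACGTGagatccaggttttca
Bnip3: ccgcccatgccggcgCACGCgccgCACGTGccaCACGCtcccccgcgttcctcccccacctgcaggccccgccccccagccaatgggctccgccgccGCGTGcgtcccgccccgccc
Adm: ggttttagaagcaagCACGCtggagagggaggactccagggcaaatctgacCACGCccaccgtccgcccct
Car9: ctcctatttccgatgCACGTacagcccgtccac
The Hif1a stretch lies at chr12:73907717-73907816 on the plus strand. Egln1 was read from chr8:124949303-124949395 and Egln3 from chr12:54204084-54204118, both on the minus strand. The Bnip3 stretch, with 5 core matches, is chr7:138909522-138909638 on the minus strand. Adm was read from chr7:110627552-110627622 and Car9 from chr4:43506993-43507025, both on the plus strand, and the single core of Car9 begins at position -18 from the start. Among the wider lists described further on, a core was found in 17 of 19 glycolytic targets (89.5%), in 20 of 21 other targets (95.2%) and in 5 of 11 regulators and cofactors (45.5%).

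Values below are log2 signals from which the array's own 75th percentile was subtracted, so 0 is the level of that percentile, and a change is the mean of the irisin arrays minus the mean of the control arrays. A probe entered the test if every array of 1 group or of both measured it well above background, and it was called changed at 1.5-fold or more with a Benjamini-Hochberg adjusted p from limma under 0.05. That percentile averaged 472 ± 70.1 signal units in control and 783 ± 71.6 with irisin (SD, n = 4), which is 0.74 apart on the log2 scale. Each group had 1 slide and 1 scan to itself, and the treatment cannot be told apart from either. Between 59.5% and 64.1% of probes were well above background on an array, and 8 of 8 hepatocyte markers were so on every array. Markers of other cells above background on every array were 1 of 4 endothelial (Pecam1), 2 of 4 macrophage, 3 of 4 bile duct, 1 of 4 stellate cell and fibroblast and 1 of 3 leukocyte genes, while the endothelial genes Cdh5, Tek and Tie1 were so on no array. In a culture, fewer cells and less RNA per cell cannot be told apart.

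All 17 hypoxia probes were well above background on all 8 arrays. One of the 10 genes, Epas1, was lower with irisin past the threshold, and it was lower through 1 of its 3 probes only. No gene of the group was called higher. Over all 14310 genes tested by their brightest probe, 10.2% were called lower and 0.531% higher. By probe, the count was 1 of 17 called lower and 0 called higher, against 11.7% and 0.714% of the 24091 probes tested. All irisin arrays lay below all control arrays for 2 of the 17 probes, where 23.0% of all probes did so, and above them for 0, where 4.18% did so. The median change over the 10 genes was -0.02, beside -0.06 over all genes. It was 0.04 with quantile normalization and 0.06 with cyclic loess, beside 0.005 and 0.02 over all genes. With normexp background correction it was -0.15, beside -0.11 over all genes. For 15 of the 17 probes the 95% interval of the change lay within 1.5-fold in either direction. The exceptions were Hif1a and the first probe of Epas1.

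**Figure D1:**
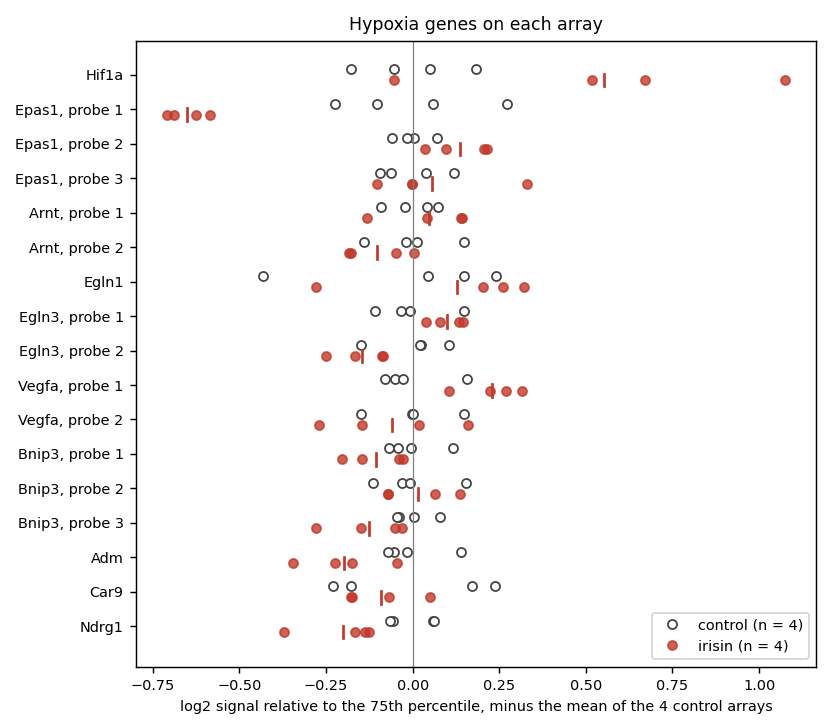
Log2 signal of each of the 17 hypoxia probes on each array (x axis, log2 units relative to the 75th percentile, minus the mean of the 4 control arrays). Open circles are control arrays, red circles irisin arrays and red lines irisin means. Only Epas1 probe 1 and Ndrg1 have all irisin arrays below all control arrays, and the irisin arrays of Hif1a are the most widely spread (SD 0.47).

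Hif1a, which encodes the alpha subunit of HIF-1, was measured by 1 probe (A_51_P387608). Its levels on control arrays 1 to 4 were -0.06, 0.07, 0.17 and 0.30, and on irisin arrays 1 to 4 they were 0.64, 0.07, 1.20 and 0.79. Of the irisin arrays, 3 lay above every control array and replicate 2 lay among them. The mean was 0.12 ± 0.15 in control and 0.67 ± 0.47 with irisin (SD, n = 4). The difference of 0.55 (SE 0.20, 95% interval 0.11 to 1.00) had a limma adjusted p of 0.0712 and was 1.47-fold, so it passed neither threshold. An exact two-sided permutation test over the 70 ways of assigning the arrays gave p = 0.0857, where the smallest possible is 0.0286. Without irisin replicate 2 the difference was 0.76 with a limma adjusted p of 0.00344, which passes, and without irisin replicate 3 it was 0.38 with a limma adjusted p of 0.175. The irisin spread was the widest of any hypoxia probe. Hif1a also passed when arrays were scaled to the spike-in probes (1.08) or not scaled (1.29), and those scalings put the median of all probes at 0.45 and 0.66.

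Epas1 encodes HIF-2 alpha, the other alpha subunit in this group. Its brightest probe (A_55_P2077448) read 2.03, 2.15, 2.52 and 2.31 on control arrays 1 to 4 and 1.56, 1.55, 1.67 and 1.63 on irisin arrays 1 to 4. Every irisin array lay below every control array. This probe fell by 0.65 (SE 0.11, 95% interval -0.89 to -0.41) from 2.25 ± 0.21 to 1.60 ± 0.06 (SD, n = 4), with a limma adjusted p of 0.00137. The exact two-sided permutation p was 0.0286, the smallest these arrays can give. The call was kept with quantile normalization (-0.64) and cyclic loess (-0.61), and was lost without control replicate 3 (-0.56), with normexp background correction (-0.48), with spike-in scaling (-0.12) and without scaling, where the sign turned (0.09). Before scaling, its mean signal was 2303 in control and 2381 with irisin, beside the larger difference in the 75th percentile given above. All 17 hypoxia probes had a higher mean signal with irisin before scaling. Over all 24091 tested probes the unscaled median change was 0.66, and 14920 were called higher.

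The other Epas1 probes were not lower with irisin on average, although all 3 are assigned to the same transcript. The second probe (A_51_P250058) read 0.85, 0.79, 0.92 and 0.83 on the control arrays and 1.06, 0.88, 0.94 and 1.05 on the irisin arrays. Its difference was 0.14 (95% interval -0.04 to 0.31, limma adjusted p = 0.26), of the opposite sign. The third and dimmest probe (A_55_P2053988) differed by 0.06 (95% interval -0.18 to 0.29, limma adjusted p = 0.773). With the 3 probes averaged, the Epas1 difference was -0.15 and was not called (limma adjusted p = 0.218).

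**Figure D2:**
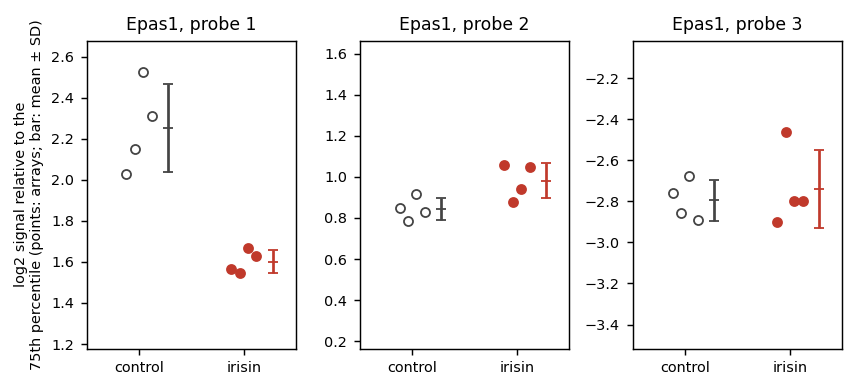
The 3 Epas1 probes on each array (y axis, log2 signal relative to the 75th percentile, with the same span of 1.5 log2 units in each panel). Circles are arrays and bars are the mean ± SD of 4 arrays. Probe 1 drops from 2.25 to 1.60 while the means of probes 2 and 3 differ by 0.14 and 0.06.

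The log2 ratio of 2 probes on the same array is untouched by a scaling that shifts the whole array by 1 constant, though not by quantile normalization, cyclic loess or normexp. Probes of a gene were compared in this way after the values had been seen. The ratio of the first to the second Epas1 probe was 1.41 ± 0.18 in control and 0.62 ± 0.10 with irisin (SD, n = 4), a difference of -0.79 with no overlap. Quantile normalization gave -0.79 for this pair, cyclic loess -0.76 and normexp -0.64. The ratio of the first to the third probe differed by -0.71, again with no overlap, and by -0.25 with normexp. Of the 9 probe pairs within hypoxia genes, 3 did not overlap between groups, the third being the Egln3 pair (0.25), and 23.6% of the 5482 pairs of tested probes within any named gene did not overlap. For these 3 pairs the exact two-sided permutation p was 0.0286 each, the smallest possible, and 0.0857 after Benjamini-Hochberg adjustment over the 9 pairs. With 3 pairs at the smallest p, that adjusted value is the same whatever the size of the difference. The adjusted test therefore cannot decide whether the probes of a gene differ, and the Epas1 pairs share a probe.

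Arnt encodes the partner subunit of the alpha subunits. Its brighter probe (A_55_P2100895) was at 0.93 ± 0.07 in control and 0.98 ± 0.13 with irisin (SD, n = 4), a difference of 0.05 with a 95% interval from -0.15 to 0.25. Its dimmer probe (A_55_P2100899) differed by -0.10 (95% interval -0.30 to 0.10). The groups overlapped on both probes.

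Egln1 and Egln3 encode PHD2 and PHD3, the prolyl hydroxylases that mark the alpha subunits, and Egln3 is itself a well-known HIF target. Egln1 (A_51_P186899) was dim, and its levels on control arrays 1 to 4 were -3.88, -3.79, -3.99 and -4.46 beside -3.71, -3.77, -3.83 and -4.31 on irisin arrays 1 to 4. The groups overlapped almost wholly. The difference was 0.13 with the widest interval after Hif1a (-0.25 to 0.50), and with normexp background correction it was -0.32. The brighter Egln3 probe (A_52_P387009) was at 0.04 ± 0.11 in control and 0.14 ± 0.05 with irisin, a difference of 0.10 (95% interval -0.08 to 0.28). The dimmer one (A_55_P1960916) was at -0.93 ± 0.11 and -1.07 ± 0.08, a difference of -0.15 (95% interval -0.34 to 0.04). The Egln3 probes thus lay on opposite sides of 0, and neither passed (limma adjusted p = 0.453 and 0.264).

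Vegfa encodes the main growth factor for blood vessels. Its brighter probe (A_52_P638895) read -1.02, -1.05, -0.81 and -0.998 on the control arrays and -0.86, -0.74, -0.65 and -0.70 on the irisin arrays. Of the irisin arrays, 3 lay above every control array. The difference was 0.23 (SE 0.09, 95% interval 0.04 to 0.42, limma adjusted p = 0.0853), and the exact permutation p was 0.0571. The dimmer probe (A_52_P249424), which belongs to another listed transcript of the gene, differed by -0.06 (95% interval -0.30 to 0.18), and by -0.38 with normexp. The Vegfa ratio between these probes differed by 0.29 between groups, with overlap (exact permutation p = 0.114), and by 0.08 with cyclic loess.

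Bnip3 encodes a mitochondrial protein that starts mitophagy. Its 3 probes, all assigned to 1 transcript, differed by -0.10 (A_55_P2091473), 0.01 (A_55_P2091472) and -0.13 (A_66_P120736), with limma adjusted p between 0.336 and 0.936. The brightest was at 2.91 ± 0.08 in control and 2.81 ± 0.09 with irisin (SD, n = 4). Intervals for all 3 lay between -0.31 and 0.21, so a change of 1.5-fold in either direction was outside each of them. With normexp the dimmest probe differed by -0.33.

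Adm encodes adrenomedullin, a peptide that widens blood vessels. It was at -3.13 ± 0.10 in control and -3.33 ± 0.12 with irisin (SD, n = 4), a difference of -0.20 (95% interval -0.40 to 0.005, limma adjusted p = 0.156). Car9 encodes carbonic anhydrase 9, an enzyme of the cell surface that regulates pH and is much used as a marker of hypoxia. It was dim in both groups, at -3.23 ± 0.24 and -3.33 ± 0.11, a difference of -0.09 (95% interval -0.36 to 0.18, limma adjusted p = 0.66).

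Ndrg1, a stress response gene induced by hypoxia and iron depletion, lay in the brightest decile of all tested probes. It read 4.97, 4.96, 5.08 and 5.09 on control arrays 1 to 4 and 4.86, 4.90, 4.65 and 4.89 on irisin arrays 1 to 4. All irisin arrays lay below all control arrays. The difference was small, -0.20 (SE 0.09, 95% interval -0.39 to -0.01), and did not pass (limma adjusted p = 0.126), and the exact permutation p was 0.0286. In that decile the median change over all probes was also -0.20. With cyclic loess, which removes such trends with brightness, the Ndrg1 difference was -0.05.

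**Figure D3:**
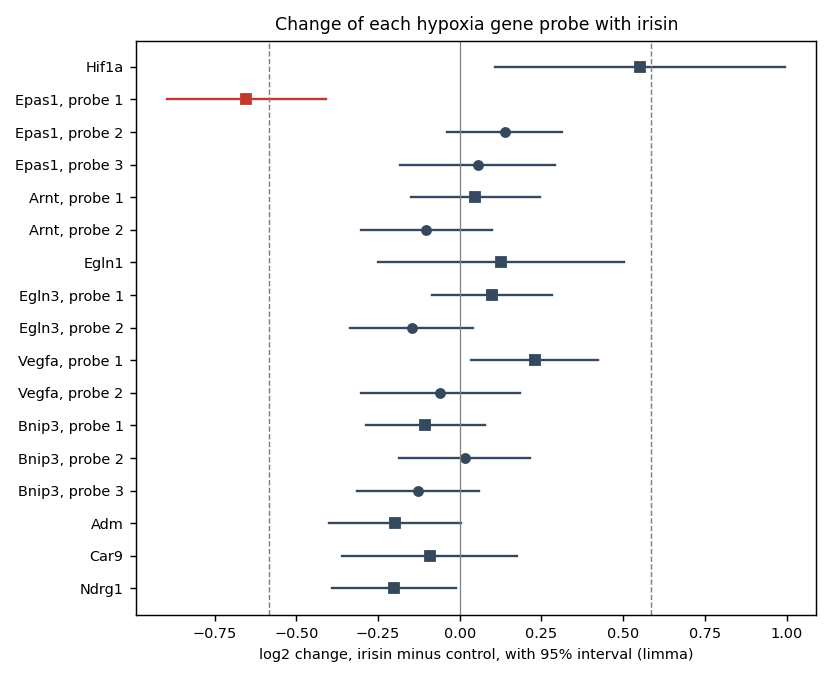
Log2 change of each hypoxia probe, irisin minus control (x axis), with its 95% interval from limma. Squares are the brightest probe of a gene, circles its other probes, dashed lines 1.5-fold, and red the probe that was called. Intervals of all probes but Hif1a and Epas1 probe 1 lie within the dashed lines.

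The number of hypoxia genes called depended on how the arrays were scaled. With the 75th percentile, the median of detected probes, quantile normalization or cyclic loess, 1 of 10 genes was called, and it was Epas1 each time. With normexp background correction none was called. Scaled to the 8 spike-in probes, Hif1a and Vegfa were called higher (1.08 and 0.76), where 1395 of all 14310 genes were. Without scaling 7 of the 10 genes were called higher, where 9562 of the 14310 were. The median over all genes stood at 0.47 and 0.67 under these scalings, and the median over the 10 genes at 0.51 and 0.72. Relative to the median of all probes, the Epas1 probe stood at -0.57 and Hif1a at 0.63. Scaling to the 75th percentile, to the spike-in probes or not at all gives these same distances by arithmetic, since each shifts a whole array by 1 constant.

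**Figure D4:**
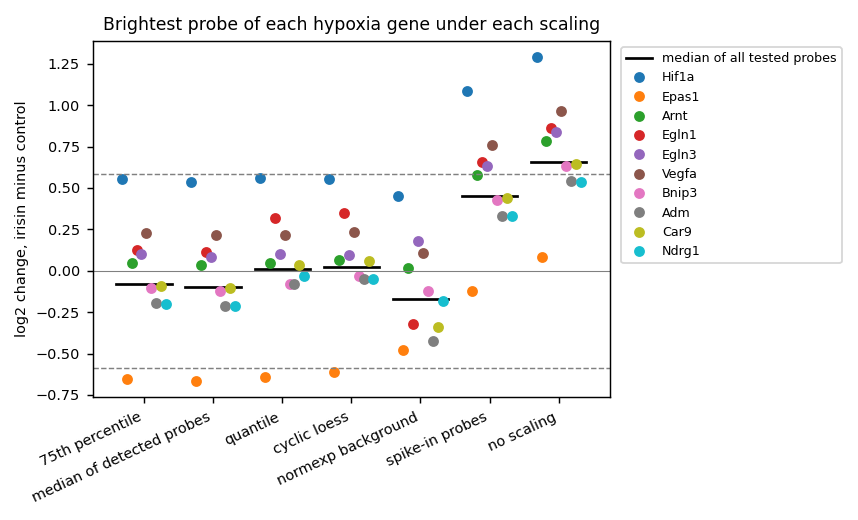
Log2 change of the brightest probe of each hypoxia gene (colored circles) under 7 ways of scaling or background correction (x axis), with the median of all tested probes as a black line and 1.5-fold as dashed lines. Between the 75th percentile, spike-in and unscaled values the circles shift by the same amount as the median line (-0.08, 0.45 and 0.66), with normexp they shift unequally, and Epas1 stays below and Hif1a above that line under every one.

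Around these genes, 13 regulators and cofactors of HIF were examined, and 12 were tested since Arnt2 was above background on no array. None was called in either direction by its brightest probe (limma, with 3 of 12 at an unadjusted p under 0.05, where 29.5% of all genes were). Their median change was -0.09, which turned to 0.01 with quantile normalization and 0.02 with cyclic loess. The median over all genes was -0.06, 0.005 and 0.02 in turn. The von Hippel-Lindau gene Vhl, which recognises hydroxylated alpha subunits, differed by -0.02 (95% interval -0.26 to 0.22). Its ligase partners Elob, Eloc and Rbx1 differed by -0.15, -0.16 and -0.19. Cul2, the scaffold of this ligase, differed by 0.15 on its brightest probe, whereas a dimmer one (A_55_P2121076) fell by 0.63 (limma adjusted p = 0.00165), so its probes disagreed. The asparaginyl hydroxylase gene Hif1an differed by 0.05, the prolyl hydroxylase Egln2 by -0.27 (limma adjusted p = 0.179) and the inhibitory subunit Hif3a by -0.04.

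Crebbp and Ep300 encode the coactivators that HIF recruits to its targets. Crebbp differed by -0.36 (limma adjusted p = 0.0199), all irisin arrays lying between 0.06 and 0.28 and all control arrays between 0.36 and 0.74. Ep300 differed with the opposite sign, by 0.40 (limma adjusted p = 0.0525), and Cited2, a competitor of HIF for both, by 0.11. Ep300 was at 0.43 with quantile normalization and 0.47 with cyclic loess (limma adjusted p = 0.0498 and 0.0364). With normexp it was at 0.05 (limma adjusted p = 0.752). P4htm, a transmembrane prolyl hydroxylase, differed by -0.43 (limma adjusted p = 0.00467), but by -0.19 with quantile normalization and -0.16 with cyclic loess (limma adjusted p = 0.138 and 0.159). Crebbp and P4htm stayed under 1.5-fold, and both had the opposite sign with spike-in scaling (0.17 and 0.10) and without scaling (0.38 and 0.30).

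Of 20 glycolytic targets of HIF, 19 were tested, and 1 was called lower and 0 higher, where 10.2% and 0.531% of all genes were. An unadjusted limma p under 0.05 was found for 7 of the 19, beside 29.5% of all genes. Their median change was -0.13, beside -0.06 over all genes, with 5 above 0 and 14 below. The median turned to 0.06 with quantile normalization and 0.01 with cyclic loess, where that of all genes turned to 0.005 and 0.02. The called gene was Slc16a3, the lactate exporter MCT4. Its probe read -4.86, -4.82, -4.90 and -4.99 in control and -5.70, -5.42, -5.59 and -5.52 with irisin, with no overlap. It fell by 0.66 (SE 0.09, limma adjusted p = 0.000364), and its second probe fell by 0.79. The call was lost with quantile normalization (-0.30), cyclic loess (-0.26) and spike-in scaling (-0.13), and the sign turned without scaling (0.07). Both probes lay in decile 2 of all tested probes counted from the dimmest, where the median change of all probes was -0.33. The glucose transporter gene Slc2a1 differed by 0.02 (95% interval -0.21 to 0.24), and the phosphoglycerate kinase gene Pgk1 by -0.15 (95% interval -0.36 to 0.05).

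Hexokinase 2 (Hk2) and the pyruvate dehydrogenase kinase gene Pdk1 had every irisin array above every control array. Their differences were 0.30 and 0.36 (limma adjusted p = 0.075 and 0.08), and neither passed. With normexp they fell to 0.19 and 0.11 (limma adjusted p = 0.11 and 0.43). They were 0.30 and 0.38 with quantile normalization and 0.30 and 0.42 with cyclic loess, again with no adjusted p under 0.05. Of the 19 glycolytic targets tested, 2 lay wholly higher with irisin and 4 wholly lower, where 4.18% and 23.0% of all probes did. Lactate dehydrogenase A (Ldha), which makes lactate from pyruvate, differed by -0.43 (limma adjusted p = 0.015), with every irisin array below every control array. Gapdh, named here after its value was seen, differed by -0.25 (limma adjusted p = 0.0386). With quantile normalization Ldha was at -0.08 and Gapdh turned to 0.13, and with cyclic loess they were at -0.21 and 0.001, none of these with an adjusted p under 0.05. Both stayed under 1.5-fold, and both probes were in the brightest decile, where the median change was -0.20.

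Of 29 other targets, 26 were tested, the dim ones being Mxi1, Epo and Lox, and none was called (limma, with 6 of 26 at an unadjusted p under 0.05, beside the 29.5% of all genes). Their median change was 0.02, beside -0.06 over all genes, with 14 above 0 and 12 below. With normexp their median was -0.08, beside -0.11 over all genes. Bnip3l, the close relative of Bnip3 in mitophagy, differed by -0.02 (95% interval -0.20 to 0.17). Ankrd37, the histone demethylase gene Kdm3a and the collagen hydroxylase gene P4ha1 differed by 0.08, -0.06 and -0.18. Ddit4, an inhibitor of mTORC1, and the repressor gene Bhlhe40 differed by -0.11 and 0.05.

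The heme oxygenase gene Hmox1 was the most variable of the targets. It read 0.70, 0.36, 0.42 and 0.78 in control and 0.21, 2.08, 1.54 and 1.11 with irisin. Irisin replicate 1 lay below every control array and the other irisin arrays above every one. The difference of 0.67 (95% interval -0.03 to 1.38) did not pass (limma adjusted p = 0.166), and without irisin replicate 1 it was 1.02 and passed (limma adjusted p = 0.00639), whereas without irisin replicate 2 it was 0.39 (limma adjusted p = 0.301). Hmox1 was called with normexp (0.64, limma adjusted p = 0.0358), spike-in scaling (1.21) and no scaling (1.41), but not with quantile normalization or cyclic loess. Irisin replicate 1 was not the array that was low for Hif1a, which was replicate 2, where Hmox1 was at its highest.

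Named after their values were seen, 3 of the 26 other targets had a limma adjusted p under 0.05 but less than 1.5-fold. By adjusted p alone 2 were higher and 1 lower, where 379 and 2562 of all 14310 genes were. Igfbp3, which binds insulin-like growth factors, differed by 0.53 (limma adjusted p = 0.00182), from -2.61 ± 0.12 in control to -2.08 ± 0.11 with irisin (SD, n = 4). Ero1a, an oxidase of the endoplasmic reticulum, differed by 0.35 (limma adjusted p = 0.0105), but by 0.10 with normexp (limma adjusted p = 0.417). With normexp Igfbp3 differed by 0.29. Kdr, the receptor of Vegfa, differed by -0.56 (limma adjusted p = 0.00441), and its other probe was above background on no array. For each of these 3 the groups did not overlap. Of the 26 other targets tested, 2 lay wholly lower with irisin and 2 wholly higher, where 23.0% and 4.18% of all probes did. Beside Kdr, a gene of endothelial cells, the endothelial marker Pecam1 fell by 0.61 (limma adjusted p = 0.00214) at a level between -5.25 and -4.20, and was the only one of 4 endothelial markers above background. The Pecam1 call was lost with quantile normalization (-0.32), cyclic loess (-0.28) and spike-in scaling (-0.08), and the sign turned without scaling (0.13). The leukocyte marker Cd3e and the macrophage marker Csf1r differed by -0.51 and -0.49 (limma adjusted p = 0.0023 and 0.00139), under 1.5-fold. The other macrophage marker tested, Cd68, and the fibroblast marker Col1a1 each differed by 0.006. Of the 8 hepatocyte markers, 7 were below 0 and 1 above. Among them Krt18 and Trf differed by -0.47 and -0.39 (limma adjusted p = 0.00522 and 0.0204), also under 1.5-fold. On the linear scale this same Pecam1 level was 0.0418 to 0.0543 in control and 0.0263 to 0.0328 with irisin. The part of endothelial cells in the Kdr value was not tested.

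**Figure D5:**
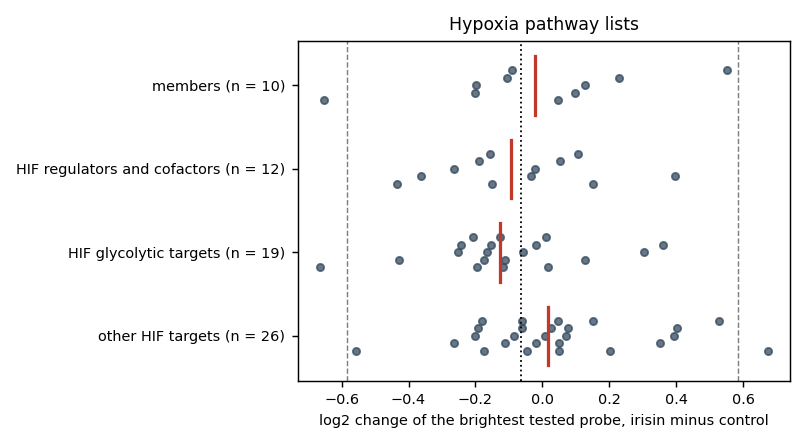
Log2 change of the brightest tested probe of each gene (x axis, irisin minus control) in the 10 hypoxia genes and the 3 lists around them. Circles are genes with a vertical offset for legibility, red lines list medians (-0.02, -0.09, -0.13 and 0.02), the dotted line the median of all genes (-0.06) and dashed lines 1.5-fold. Only Epas1 and Slc16a3, both lower, were past 1.5-fold and called, and Hmox1 at 0.67 was not called.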

How the data were processed

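The authors prepared Cy3-labeled cRNA for one-color Agilent arrays, quantified the spots in Feature Extraction (version 12.0.3.1 per the file headers) and deposited spot intensity on a linear scale, not normalized between arrays. The deposited value table equals the mean processed signal per probe within 0.0005%. Samples were grouped by their labels. Control spots and spots marked as outliers (at most 0.463% on an array) were left out, spots were averaged per probe (39429 probes), and log2 values were taken relative to each array's 75th percentile. Probes carry old design names, so 28663 were named through RefSeq (GRCm38.p6), and a gene was read by its brightest tested probe. The 24091 probes tested were fitted with limma 3.58.1 (lmFit, eBayes) in R 4.3.3, checked on simulated data. The number of arrays limits the precision. The text names all 10 genes with every probe, all regulators and cofactors, called targets and 13 other targets, with exceptions marked, and 1 further gene is not reported here. The members, lists and rules were chosen with earlier results of these data known. The study's other experiments were not analysed here.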

Additional observations from a re-analysis of the deposited data

Results flagged for a closer look

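Of 84 groups of 4 arrays checked (42 probes in each treatment), 1 held an array standing apart from the rest of its group by Dixon's ratio, and chance alone marks about 1 in 20. Ndrg1 was 4.65 on irisin replicate 3, where the other irisin arrays lay between 4.86 and 4.90, and without it the difference went from -0.20 to -0.14.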

How the results depend on the processing

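Over all probes, 172 were called higher and 2814 lower. The number called higher was 54 with normexp, 670 with quantile normalization, 699 with cyclic loess, 2585 with spike-in scaling, 14920 without scaling, 108 with the methods' test, 712 by adjusted p alone and 23 at 2-fold, and it ranged from 102 (without irisin replicate 3) to 335 (without irisin replicate 2) with 1 array left out. The number called lower was 1021 with quantile normalization, 926 with cyclic loess, 225 with spike-in scaling, 162 without scaling, 12750 with no filter on dim probes, 5195 by adjusted p alone and 777 at 2-fold, and 2631 to 3050 with 1 array left out. Of all 14310 genes, 1395 were called higher and 117 lower with spike-in scaling, and 9562 and 81 without scaling. Of the 10 hypoxia genes, 1 was called, against 0 with normexp, 2 with spike-in scaling, 7 without scaling, 0 at 2-fold and 0 with probes averaged per gene. With 1 array left out it was 0 (without control replicate 3, which ends the Epas1 call) to 2 (without irisin replicate 2, which adds Hif1a). Of the regulators, 1 was called with spike-in scaling, 7 without scaling and 2 by adjusted p alone. Of the glycolytic targets, 0 were called with quantile normalization, cyclic loess or at 2-fold, 2 with spike-in scaling, 10 without scaling, 2 with no filter and 3 by adjusted p alone. Of the other targets, 1 was called with normexp, 1 with quantile normalization, 2 with cyclic loess, 6 with spike-in scaling, 20 without scaling, 3 with no filter and 3 by adjusted p alone, and 0 to 1 with 1 array left out.

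Without scaling the signs turned for Epas1 (0.0858), Arnt (0.64), Egln3 (0.59), Vegfa (0.68), Bnip3 (0.63 and 0.61), Adm (0.54), Car9 (0.65), Ndrg1 (0.54), Bnip3l (0.72), Crebbp (0.38), Ddit4 (0.63), Egln2 (0.47), Elob (0.59), Eloc (0.58), Hif3a (0.70), Kdm3a (0.68), Ldha (0.31), P4ha1 (0.56), P4htm (0.30), Pgk1 (0.58), Rbx1 (0.55), Slc16a3 (0.0737) and Vhl (0.72), for Arnt, Egln3 and Vegfa on the dimmer probe. With spike-in scaling they turned for Crebbp (0.17), Ldha (0.10) and P4htm (0.10), and with normexp for Egln1 (-0.32). The unscaled values keep the 0.74 between arrays by construction, and for the other settings the cause was not tested. A further 56 of 882 values changed sign with no adjusted p under 0.05 on either side. With the replicate number as a block, 173 probes were called higher and 2830 lower and none of the 42 named probes gained or lost its call. Same-numbered arrays deviated together in 2 of 4 pairs only (correlations 0.11, -0.35, -0.13 and 0.17), so the numbers are not treated as pairing. Among the dim probes, normexp took Adm to -0.42, Car9 to -0.34, the dimmer Vegfa probe to -0.38, the dimmest Bnip3 probe to -0.33 and the dimmer Arnt probe to -0.25, all under 1.5-fold with an adjusted p under 0.05, where the median of all probes was -0.17.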
